A study of Mus musculus with 20 samples.

Results

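Semaphorins, ephrins, Slits and netrins are the 4 classical families of axon guidance cues, and skin cells use the same cues and receptors for adhesion, repulsion and cell shape. Their genes were followed here through 5 populations sorted from mouse dorsal epidermis. The members are the 67 of the 53380 genes in the deposited table whose symbol belongs to a semaphorin (Sema), plexin (Plxn), neuropilin (Nrp), Eph receptor, ephrin (Efn), Slit, Robo, netrin (Ntn) or Unc5 gene. A gene was tested where at least 3 of the 20 libraries had a value of at least 10, which 55 of the 67 members and 17204 of all genes met.

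The study asked what distinguishes basal keratinocytes with high surface Thy1 from their neighbours. It profiled Thy1hi keratinocytes (α6 integrin+ Sca1+ Thy1hi, 4 libraries), Thy1- keratinocytes (the same gate without Thy1, 4 libraries), hair follicle stem cells (HFSC, Sca1- CD34+, 4 libraries), dendritic epidermal T cells (DETC, the γδ T cells that reside in mouse epidermis, sorted as Thy1+ without α6, 5 libraries) and YFP+ Thy1hi keratinocytes marked by a Cre reporter (Thy1hiYFP, 3 libraries). The labels give the genotype Thy1.2CreERT2-Rosa26-EYFP and no treatment for all 20 samples, whereas the study's methods describe wild-type C57BL/6J mice for all populations but the YFP+ one, and induction of Cre for that one. The cell type label of the YFP+ samples says Sca1- where their titles say Sca1+. In this line Cre follows a Thy1 promoter transgene, so the reporter marks cells by transgene activity and not by Thy1 protein. The age label differs in every sample and does not overlap between populations (HFSC 8 to 11 weeks, DETC 12 to 16, Thy1hiYFP 17 to 19, Thy1hi 20 to 23, Thy1- 24 to 27), while the design text gives 8 weeks for all mice. If the age labels hold, age and population cannot be told apart. The study's text gives pooled mice in 1 place and numbers of mice in another, and its numbers for HFSC and DETC differ from the labelled libraries, so what 1 library holds is not settled here. The p-values measure only the spread between these libraries, which may be technical.

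In each family a ligand meets its own receptors. Semaphorins bind plexins, and the secreted class 3 semaphorins mostly need a neuropilin as well. Sema3E is the exception that binds plexin-D1 directly. Ephrins are membrane-bound ligands of the Eph receptor kinases and signal in both directions at cell contacts. Slits act through Robo receptors, and netrins through DCC, neogenin and the Unc5 receptors. In the epidermis Eph receptors and ephrins take part in sorting keratinocytes into compartments, and Sema4D on DETCs is known to engage plexin-B2 on keratinocytes.

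Values are normalised reads, that is, reads per gene divided by a size factor for the library. Each library held 7781256 to 12982393 reads on genes, of which 13.1 to 41.5% fell on the ribosomal RNA precursor Rn45s. Thy1hi, DETC and HFSC libraries carried the markers of their cell types, in lists that hold neither Thy1 nor Sca1. The 6 basal keratinocyte markers summed to 183893 to 255461 normalised reads in Thy1hi libraries and to 11941 to 56893 in DETC libraries, the 7 T cell markers to 243 to 420.2 and 17943 to 37318, and the 6 follicle markers to 682 to 987 in Thy1hi and 5771 to 9218 in HFSC libraries. Of these 3 lists, no gene was at or under 3 reads throughout the Thy1hi libraries. A pair of libraries stood apart from their groups. DETC library a had the lowest basal marker sum (11941, against 40843 to 56893 in the other 4), and HFSC library 4 had a Langerhans cell marker sum of 73.6 (against 2391 to 4909 in the other 3). HFSC library 4 was also the lowest of its group in the basal sum (70923, against 149406 to 164972) and the follicle sum (5771, against 7710 to 9218). Its Rn45s share was 13.1%, against 38.3 to 41.5% in the other 3.

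Per kilobase of exon, Epha2 had the highest mean level of the guidance genes in Thy1hi, Thy1- and Thy1hiYFP cells, and HFSC and DETC had another gene first. The level in Thy1hi cells was highest for Epha2 (472 normalised reads per kb, 428 to 501 over 4 libraries), a receptor of epidermal cell contacts. It was followed by the secreted ligand Sema3c (430.5, 390.0 to 474) and the semaphorin receptor Plxnb2 (307, 267 to 357), and the first 2 ranges overlap. In HFSC libraries Ephb6, an Eph receptor without kinase activity, stood first (349 per kb, 280 to 407), beside the ligand Efnb2 (335, 295 to 359), and these ranges overlap. Epha2 had 275 per kb there (56.1 to 370). HFSC library 4 was the highest HFSC library for Ephb6 and the lowest for Efnb2 and Epha2, so this order rests partly on that library. In DETC libraries the order changed to the netrin receptor Unc5b (401 per kb, 266 to 675), then Sema4c (254, 179 to 413) and Sema6d (225, 151 to 352), all 3 with overlapping ranges. The highest population mean of a tested member fell in HFSC for 18 members, in DETC for 14, in Thy1- for 9, in Thy1hi for 8 and in Thy1hiYFP for 6.

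**Figure D1:**
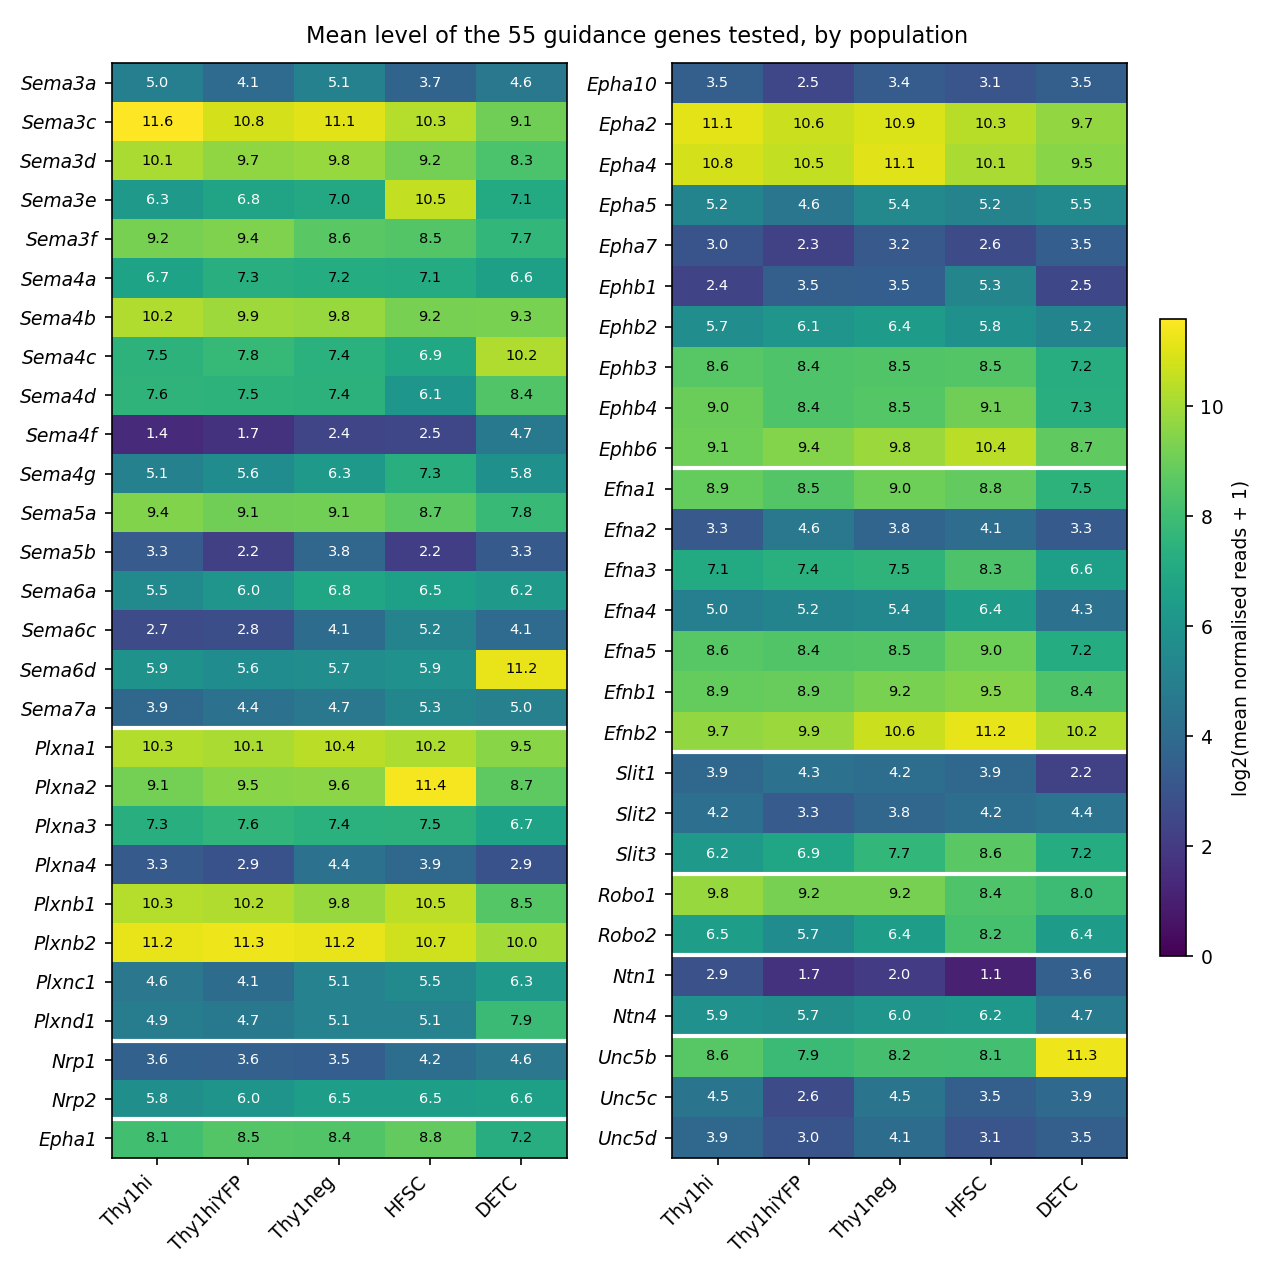
Mean level of the 55 tested guidance genes (rows, by family) in the 5 populations (columns), coloured by log2 of the mean normalised reads + 1. Thy1neg stands for Thy1-. The row of Sema6d is yellow in DETC alone, with a mean of 2376 against 58.6 in Thy1hi, and that of Sema3e in HFSC, with 1485 against 76.2.

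The comparisons with dendritic epidermal T cells called the most members. Against Thy1hi cells, 26 of the 55 members passed the test (8 higher and 18 lower, 47.3%), where 36.6% of all genes tested did (19.9% higher, 16.6% lower). By direction, 14.5% of the members were higher and 32.7% lower. The median log2 difference was -0.24 for the members and -0.004 for all genes. Leaving out 1 library moved the members' median between -0.43 (without Thy1hi library 4) and -0.17 (without DETC library a). Without DETC library a the counts were 13 higher and 16 lower, where 32.7% of all genes were called, 56.3% of them higher (54.5% with all libraries). The 8 that rose were the semaphorins Sema6d, Sema4f, Sema4c, Sema6c and Sema4d, the plexins Plxnd1 and Plxnc1, and Unc5b. With all libraries, no Eph receptor and no ephrin was called higher.

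Sema6d, a transmembrane semaphorin known as a ligand of plexin-A1, showed the largest rise. Its normalised reads were 2375, 2233, 1956, 3721 and 1595 in DETC libraries 1, 2, 3, a and b, and 54.1, 86.9, 49.6 and 43.7 in Thy1hi libraries 1 to 4. Every DETC library was far above every keratinocyte library, Thy1-, HFSC and Thy1hiYFP included (25.2 to 80.4). The log2 difference was 5.31 ± 0.32 (SE, limma adjusted p = 1.34e-10), and 5.40 ± 0.32 against HFSC (limma adjusted p = 1.45e-10). In bulk libraries, fewer cells of a type and less RNA per cell cannot be told apart.

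Unc5b, a receptor for netrins and for the adhesion protein Flrt2, had 1663, 2134, 1914, 4222 and 2607 normalised reads in DETC libraries 1, 2, 3, a and b and 364, 320.1, 337 and 486 in Thy1hi libraries 1 to 4. Again the groups did not overlap, and library a was highest. The rise was 2.67 ± 0.26 on the log2 scale (limma adjusted p = 8.1e-08), with 3.20 ± 0.26 against HFSC (limma adjusted p = 6.5e-09). Its classical ligand Ntn1 was low in all libraries, at 4.89, 23.4, 7.12, 1.37 and 16.8 in DETC and 0 to 10.5 in the 15 keratinocyte libraries. Against HFSC the log2 difference of Ntn1 was 2.32 ± 0.64 (limma adjusted p = 0.0067), and library a overlapped the HFSC libraries. Ntn1 reached the filter value of 10 only in DETC libraries 2 and b and in Thy1hi library 2 (10.5). Without DETC library 2 or b too few libraries reached the threshold for Ntn1 to be tested. It was thus tested only because of the group where it is high, and its p-value supports no conclusion.

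To show 2 of the genes high in DETC, a ligand and a receptor, the sequences at the starts of Sema6d and Unc5b are given from RefSeq on GRCm38.p6, 250 bases before to 50 after the annotated start, 5′ to 3′ on the gene's strand. Both genes were picked for display after their values were seen. Capitals mark the GC box letters GGGCGG on either strand. The promoter of Sema6d (gene at chr2:124089969-124667770, plus strand, the first of its 2 starts in the table) lies at chr2:124089719-124090018, and that of Unc5b (gene at chr10:60762593-60831581, minus strand) at chr10:60831532-60831831:
Sema6d: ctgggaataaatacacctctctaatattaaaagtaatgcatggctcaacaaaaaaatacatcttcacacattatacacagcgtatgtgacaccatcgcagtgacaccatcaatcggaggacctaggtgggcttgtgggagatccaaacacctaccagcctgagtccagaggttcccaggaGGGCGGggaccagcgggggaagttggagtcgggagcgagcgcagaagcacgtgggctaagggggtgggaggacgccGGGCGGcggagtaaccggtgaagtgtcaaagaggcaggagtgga
Unc5b: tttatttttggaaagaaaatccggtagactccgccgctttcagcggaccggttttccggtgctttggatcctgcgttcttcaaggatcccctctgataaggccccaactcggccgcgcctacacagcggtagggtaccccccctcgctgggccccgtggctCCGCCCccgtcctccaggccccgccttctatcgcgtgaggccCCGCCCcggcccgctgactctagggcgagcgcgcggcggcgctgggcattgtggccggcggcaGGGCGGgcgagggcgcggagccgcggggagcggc
The Sema6d window held 2 matches and 14 CG dinucleotides at 54.3% GC, and the Unc5b window 3 matches and 36 CG at 69.7% GC. For comparison, 35.7% of the 32851 promoters in the table held at least 1 GGGCGG, as did 70.3% of the 74 promoters of the 58 members with an entry. The letters TGTGGT, the core bound by RUNX factors, had no match on either strand of these 2 windows (16.8% of all promoters held one).

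Sema4c, a transmembrane ligand of plexin-B2, had 1226, 919, 825, 1896 and 975 normalised reads in DETC libraries 1, 2, 3, a and b and 187, 132, 199.97 and 199 in Thy1hi libraries. The lowest DETC library was above every keratinocyte library, of which the highest had 285 (Thy1hiYFP). The log2 difference was 2.65 ± 0.26 against Thy1hi (limma adjusted p = 1.0e-07) and 3.29 ± 0.26 against HFSC (limma adjusted p = 5.1e-09). An opposite-strand gene covers 7.27% of its exon bases, and the strand setting of the counting is not given in the sources used here.

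Sema4d, a ligand by which DETCs engage plexin-B2 on keratinocytes, had 384, 388, 329.7, 373 and 262 normalised reads in DETC libraries 1, 2, 3, a and b. It was also present in keratinocytes, at 209, 179, 163 and 195 in Thy1hi libraries and 71.6, 91.2, 80.2 and 28.7 in HFSC libraries. The 3 groups were ordered DETC, Thy1hi, HFSC with no overlap between neighbours. The rise in DETC was 0.88 ± 0.25 on the log2 scale against Thy1hi (limma adjusted p = 0.0081) and 2.44 ± 0.25 against HFSC (limma adjusted p = 1.5e-07). Its receptor Plxnb2 was on the keratinocyte side, with 2066, 2061, 2611 and 2752 normalised reads in Thy1hi libraries against 1109, 1027, 1235, 446 and 1223 in DETC, and fell by 1.31 ± 0.25 (limma adjusted p = 2.6e-04) without overlap. Plxnb1, the high-affinity receptor of Sema4D, had 1207, 973, 1449 and 1403 against 429, 408, 489, 149.6 and 352, and fell by 1.87 ± 0.26 (limma adjusted p = 7.9e-06). Cd72, the receptor of Sema4D on lymphocytes, was higher in DETC, with means of 104.5 against 12.6 in Thy1hi (2.90 ± 0.51, limma adjusted p = 1.2e-04).

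Plxnd1, the receptor that Sema3E binds without a neuropilin, had 206, 219.7, 300.4, 261 and 201 normalised reads in DETC libraries 1, 2, 3, a and b and 24.3, 36.9, 20.3 and 30.1 in Thy1hi libraries. HFSC libraries had 27.7, 61.9, 36.4 and 9.81, and DETCs overlapped with neither. The rise was 3.06 ± 0.41 against Thy1hi (limma adjusted p = 5.2e-06) and 3.01 ± 0.41 against HFSC (limma adjusted p = 6.3e-06) on the log2 scale. Sema4f rose from low levels, with 35.2, 16.3, 30.8, 23.3 and 19.2 in DETC libraries and 1.1, 2.63, 1.63 and 0.97 in Thy1hi libraries (3.32 ± 0.67, limma adjusted p = 4.9e-04). Against HFSC its rise was 2.48 ± 0.67 (limma adjusted p = 0.0056, and 0.064 with a pseudocount of 0.1). Outside DETC, Sema4f reached the filter value of 10 only in Thy1- library 1 (10.95). It was thus tested only through the group where it is high, and its p-values here describe the values and support no conclusion. Plxnc1, the receptor of Sema7A, had a mean of 77.0 ± 17.4 (SD, n = 5) in DETC, rose by 1.79 ± 0.47 against Thy1hi (limma adjusted p = 0.0044) and did not pass against HFSC. Sema6c rose against Thy1hi (1.53 ± 0.53, limma adjusted p = 0.028) with overlapping libraries, and the call was lost without any 1 of Thy1hi libraries 1 and 4 and DETC libraries 1 and 3.

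**Figure D2:**
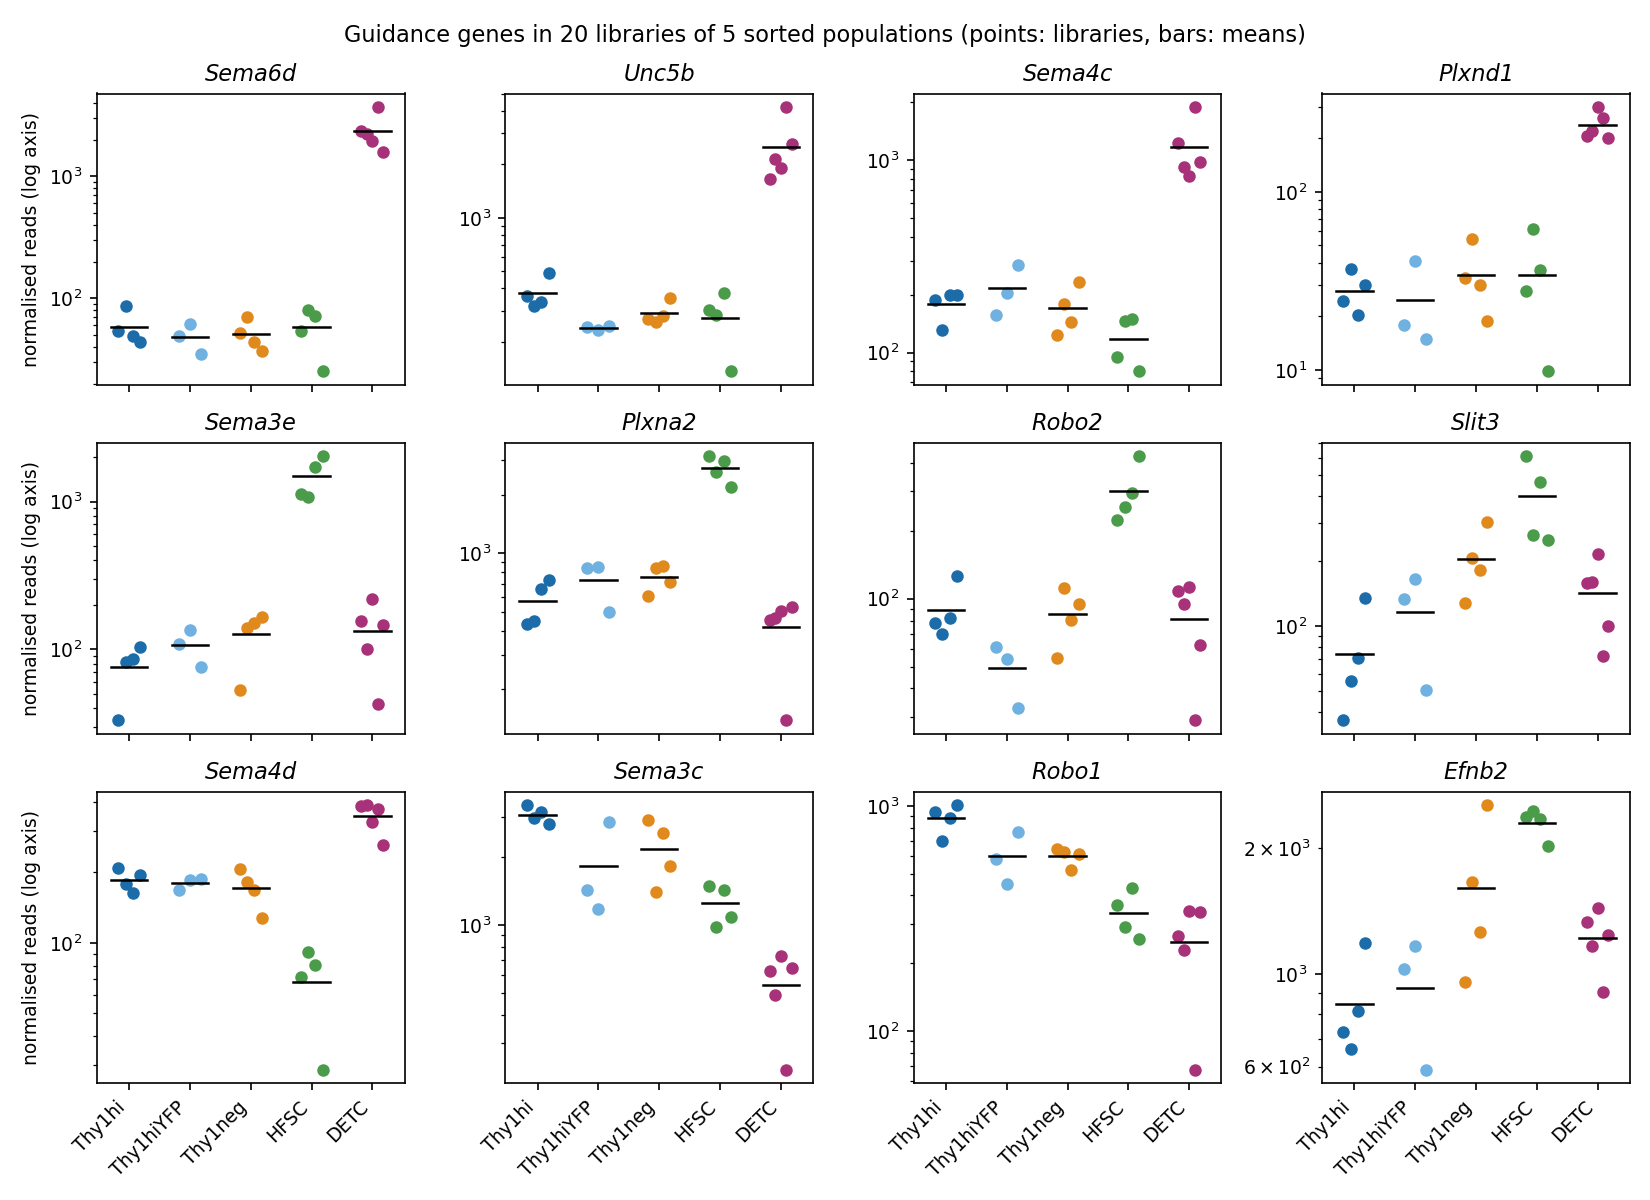
Normalised reads per library (log axis) of 12 guidance genes in the 5 populations, each point 1 library. The 5 DETC libraries of Sema6d, Unc5b, Sema4c and Plxnd1 lie above all keratinocyte libraries, and the 4 HFSC libraries of Sema3e and Plxna2 lie above all others.

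The 18 members that fell in DETC relative to Thy1hi cells comprised 5 Eph receptors (Epha1, Epha2, Epha4, Ephb3, Ephb4), 2 ephrins (Efna1, Efna5), 5 semaphorins (Sema3c, Sema3d, Sema3f, Sema4b, Sema5a), 4 plexins (Plxna1, Plxna3, Plxnb1, Plxnb2), Robo1 and Ntn4. Sema3c, a secreted ligand that signals through neuropilins and plexin-D1, had 622, 491, 729.7, 229 and 644 normalised reads in DETC libraries 1, 2, 3, a and b against 3387, 2957, 3168 and 2784 in Thy1hi libraries. The groups were far apart, and library a was lowest. The difference was -2.60 ± 0.30 on the log2 scale (limma adjusted p = 8.7e-07).

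Robo1, a Slit receptor, had 264, 229.8, 339.9, 67.2 and 339 in DETC and 941, 699, 888 and 1009.9 in Thy1hi libraries (-2.01 ± 0.33, limma adjusted p = 6.8e-05). Sema3d, another secreted class 3 ligand, had 385, 275, 421, 113 and 404 against 1291, 827, 1147 and 1135 (-1.91 ± 0.34, limma adjusted p = 1.3e-04). Ephb4, the receptor of ephrin-B2, had 134, 187, 223, 45.3 and 210.2 against 546, 469, 436 and 553 (-1.83 ± 0.33, limma adjusted p = 1.6e-04). None of the 3 overlapped between the groups, and DETC library a was the lowest library each time.

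Epha2 had 794, 899, 872, 318 and 1287 normalised reads in DETC libraries 1, 2, 3, a and b and 2339, 2312, 2174 and 2001 in Thy1hi libraries (-1.53, limma adjusted p = 0.0068). Ntn4, a basement membrane netrin, had 34.2, 28.5, 26.1, 16.5 and 20.4 against 61.8, 43.5, 56.1 and 69.8 (-1.19, no overlap). The weakest calls of the 18 were Epha1, Plxna1 and Plxna3, with limma adjusted p = 0.028, 0.019 and 0.029. Each lost its call when 1 library was left out, Epha1 without Thy1hi library 1 or 4, Plxna1 without Thy1hi library 4 or DETC library a, and Plxna3 without Thy1hi library 1, 3 or 4 or DETC library a.

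Keratinocyte markers were present in the DETC libraries too. A sum of 5 suprabasal markers was 3774 to 25186 there and 8509 to 26348 in Thy1hi libraries, with overlap. The 6 basal markers summed in DETC libraries 1, 2, 3, a and b to 25.8, 18.5, 24.4, 5.42 and 21.5% of their Thy1hi mean. All 6 were above 3 reads. Measured the same way, the 18 members that fell kept from 17.7% (Sema3c) to 66.1% (Plxna3) of their Thy1hi mean. The mean of Sema3c lay within the range of the basal marker sum over the DETC libraries, and those of the other 17 lay above its highest library. That sum does not stand for every keratinocyte marker. Krt5 had means of 11135 in DETC and 67226 in Thy1hi libraries, Krt15 7557 and 21322, and the suprabasal Krt10 9834 and 8021. In the opposite direction, the T cell marker sum of Thy1hi libraries was at most 420.2, against 17943 to 37318 in DETC. The sum of 5 Langerhans cell markers was also higher in DETC libraries, at 1076 to 3115 against 523 to 1275 in Thy1hi, with all 5 above 3 reads in both. The part of these marker sets in the members' differences was not tested.

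**Figure D3:**
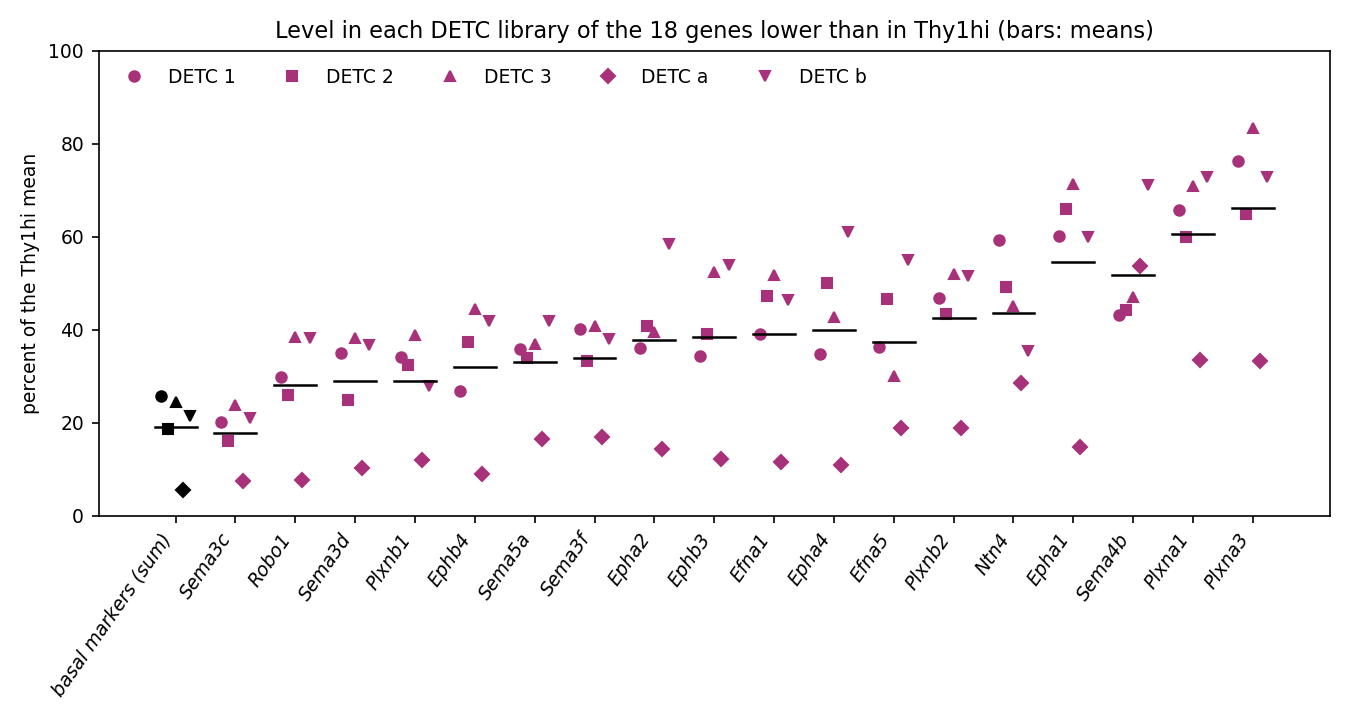
Level of 18 guidance genes and of the basal keratinocyte marker sum in each DETC library as a percent of the Thy1hi mean (y axis), 1 point per library. Library a is the lowest for the marker sum (5.42%), whose mean is 19.1%, and the gene means run from 17.7 to 66.1%.

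Relative to hair follicle stem cells, DETCs were lower for more of the members. Of 55, 33 passed the test (7 higher and 26 lower, 60.0%), against 39.7% of all genes tested (21.2% higher, 18.5% lower). The median log2 difference was -0.79 for the members and 0.02 for all genes, and -0.46 for the members without DETC library a. These 5 DETC libraries are the same as in the comparison with Thy1hi cells. The 7 that rose were Sema6d, Sema4c, Unc5b, Plxnd1, Sema4f, Sema4d and Ntn1. Of these, Sema4f and Ntn1 were tested only because of their DETC values, as described above. Among those that fell were 6 of 7 ephrins tested (Efna1, Efna3, Efna4, Efna5, Efnb1, Efnb2), 5 of 11 Eph receptors (Epha1, Ephb1, Ephb3, Ephb4, Ephb6), 5 of 8 plexins, 6 of 17 semaphorins, Slit1, Slit3, Robo2 and Ntn4. With no other population in the fit, Efna1 (limma adjusted p = 0.067) and Plxnb2 (0.072) were not called. The basal marker sum was 11941 to 56893 in DETC and 70923 to 164972 in HFSC libraries. The follicle sum was 397 to 1360 and 5771 to 9218, with all 6 of either list above 3 reads in both. The suprabasal sum of 5 markers was 3774 to 25186 and 22678 to 47844. The T cell marker sum was 17943 to 37318 in DETC and 166 to 380 in HFSC libraries, and the part of these markers in the calls was not tested.

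The largest fall was that of Sema3e, from 1123, 1069.8, 1713 and 2035 normalised reads in HFSC libraries 1 to 4 to 157, 100.7, 219.8, 42.5 and 145 in DETC libraries (-3.60 ± 0.42, limma adjusted p = 9.0e-07). Plxna2, a receptor of class 3 and class 6 semaphorins, had 3169, 2609.9, 2985 and 2180.5 against 457, 468, 508, 139 and 529.6 (-2.83 ± 0.31, limma adjusted p = 3.3e-07). For both genes every HFSC library was above every library of the other 4 populations.

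Efna4, a GPI-anchored ligand of EphA receptors, had 62.3, 94.5, 122 and 54.6 in HFSC libraries against 23.5, 19.3, 27.7, 2.74 and 22.8 in DETC (-2.27 ± 0.49, limma adjusted p = 8.6e-04). Opposite-strand genes cover 10.5% of the exon bases of Efna4, and likewise 14.1% of Efna3, 10.7% of Plxna1, 6.01% of Epha1, 2.68% of Plxnb1 and 2.17% of Ephb1. Plxnb1 had 1143, 1499.9, 1167 and 1791 in HFSC libraries (-2.02 ± 0.26, limma adjusted p = 2.9e-06), and Robo2 223, 256, 293 and 430.2 against 109, 94.6, 112, 28.8 and 62.5 (-1.98 ± 0.34, limma adjusted p = 1.1e-04). Sema3e, Plxna2, Efna4, Plxnb1 and Robo2 did not overlap between the groups. The weakest calls were those of Ephb1, Slit1, Plxna1 and Sema3d. Ephb1 (-2.02, limma adjusted p = 0.048), with 3.46, 111, 7.48 and 27.3 in HFSC, lost its call without HFSC library 2 (-1.16, limma adjusted p = 0.23) or 4, or DETC library 1, 2, 3 or b. Slit1 (-1.45, limma adjusted p = 0.035) lost it without HFSC library 1 (0.15) or 2, or DETC library a or b. Plxna1 (-0.63, limma adjusted p = 0.045) lost it without HFSC library 1, 2 or 3, or DETC library 2 or a, and Sema3d (-0.88, limma adjusted p = 0.043) without HFSC library 1, 3 or 4, or DETC library 2 or a.

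The DETC and HFSC libraries with the same number deviated from their group means with correlations of 0.17 to 0.33 in the 3 numbered pairs. Those with different numbers ran from -0.32 to 0.37. Only 3 of 6 libraries were closest to their own number, so this pairing is uncertain. The comparison was also fitted with the number as a block, which leaves out DETC libraries a and b and HFSC library 4. It called 40 members (9 higher and 31 lower) where 42.2% of all genes were called (22.6% higher, 19.6% lower). Slit1 lost its call, and Epha2 (-0.93, limma adjusted p = 1.1e-04), Epha4 (-0.68, 0.0022), Robo1 (-0.38, 0.033), Plxna4 (-1.46, 0.035), Sema4b (-0.33, 0.037), Sema6c (-0.97, 0.039), Epha5 (0.89, 0.043) and Sema5b (2.01, 0.020) gained one.

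**Figure D4:**
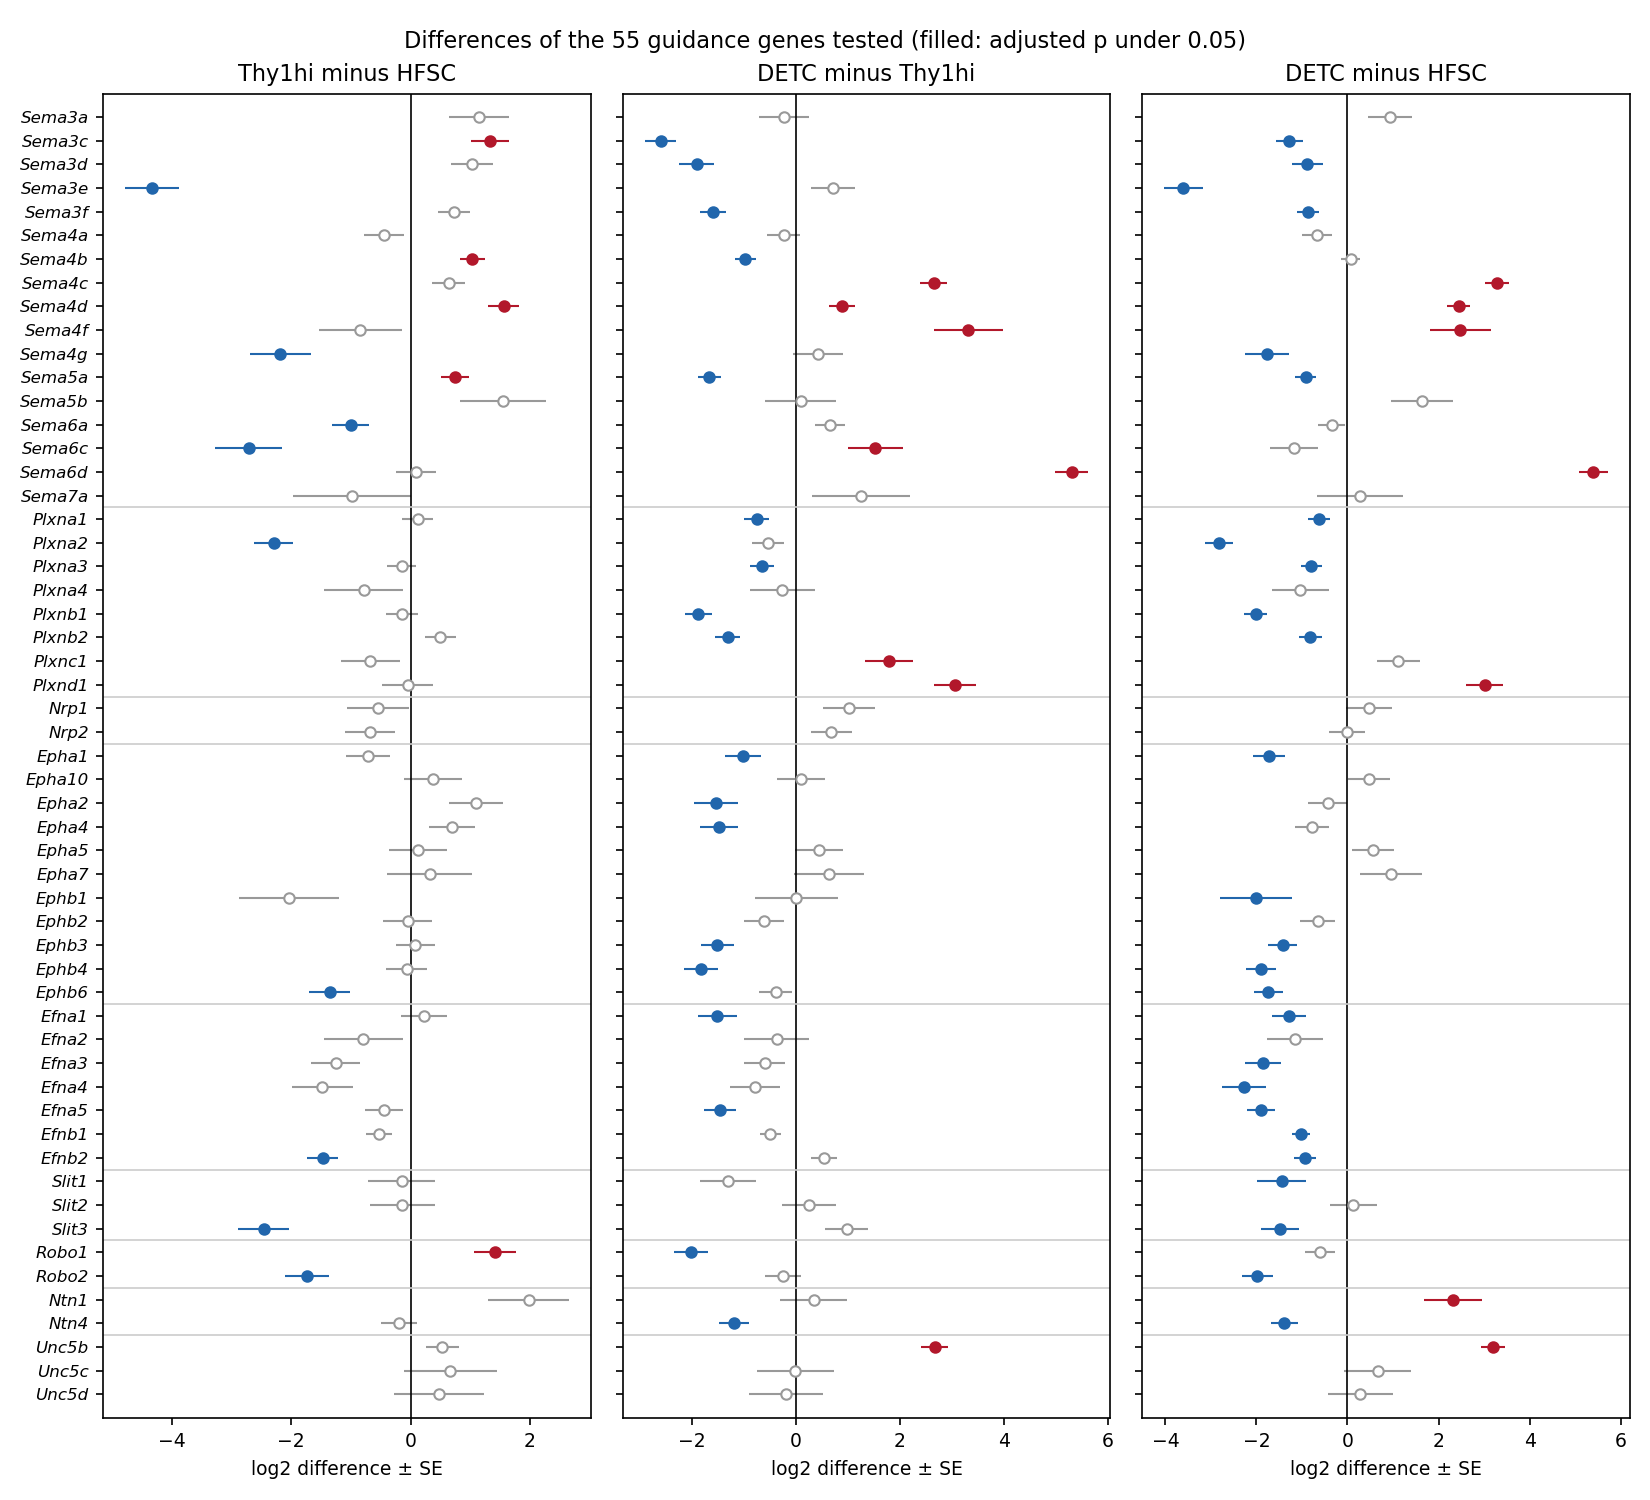
Log2 difference ± SE of the 55 tested members in 3 comparisons (Thy1hi minus HFSC, DETC minus Thy1hi, DETC minus HFSC), from limma on log2(normalised reads + 1), with filled points for adjusted p under 0.05. Sema6d reaches 5.31 and 5.40 in the DETC panels, and Sema3e -4.33 in the Thy1hi minus HFSC panel.

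Between Thy1hi keratinocytes and follicle stem cells, 14 members differed (5 higher and 9 lower in Thy1hi, 25.5%), where 13.4% of all genes tested did (6.51% higher, 6.86% lower). The median log2 difference was -0.14 for the members and 0.02 for all genes, and it ranged from -0.26 without HFSC library 4 to 0.05 without HFSC library 2. Libraries did not overlap for 18 of the 55 members, against 19.3% of all genes. All 14 called members were among the 18. Without HFSC library 4, 19 members were called and 11.5% of all genes.

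Sema3e, the plexin-D1 ligand, had the largest difference. Its normalised reads were 33.1, 81.7, 86.2 and 104 in Thy1hi libraries 1 to 4, against 1123, 1069.8, 1713 and 2035 in HFSC. The Thy1- libraries, at 53.5, 139, 151 and 166, and the YFP+ libraries, at 109.7, 135 and 76.3, were also low. The log2 difference from HFSC was -4.33 ± 0.45 in Thy1hi (limma adjusted p = 1.8e-06, exact permutation p = 0.029, the smallest that 4 against 4 libraries allow) and -3.60 ± 0.45 in Thy1- cells (limma adjusted p = 3.9e-05).

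Plxna2 had 434, 450.5, 654 and 728 normalised reads in Thy1hi and 602, 837, 861 and 715 in Thy1- libraries. All were below the lowest HFSC library, which had 2180.5. The difference from HFSC was -2.29 ± 0.32 for Thy1hi (limma adjusted p = 6.1e-05) and -1.86 ± 0.32 for Thy1- cells (limma adjusted p = 0.0014).

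The starts of these 2 genes are shown in the same way as above, chosen after their values were seen, to set genes high in HFSC beside genes high in DETC. Capitals again mark GGGCGG on either strand. The promoter of Sema3e (gene at chr5:14025276-14256689, plus strand) lies at chr5:14025026-14025325, and that of Plxna2 (gene at chr1:194618218-194816869, plus strand) at chr1:194619579-194619878. The RefSeq start of Plxna2 lies inside the gene coordinates of the table, downstream of their first base, so its window does not reach that base:
Sema3e: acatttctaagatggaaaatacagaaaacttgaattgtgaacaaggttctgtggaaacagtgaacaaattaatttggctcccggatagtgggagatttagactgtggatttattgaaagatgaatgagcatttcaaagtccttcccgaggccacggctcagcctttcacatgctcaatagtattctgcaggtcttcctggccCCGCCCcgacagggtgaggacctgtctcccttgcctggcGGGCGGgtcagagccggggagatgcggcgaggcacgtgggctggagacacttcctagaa
Plxna2: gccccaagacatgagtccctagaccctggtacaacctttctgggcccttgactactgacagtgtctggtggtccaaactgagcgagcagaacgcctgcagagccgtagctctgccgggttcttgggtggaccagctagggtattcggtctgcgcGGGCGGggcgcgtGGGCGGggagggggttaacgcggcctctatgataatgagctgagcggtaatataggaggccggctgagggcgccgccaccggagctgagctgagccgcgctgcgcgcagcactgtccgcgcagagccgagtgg
Each window held 2 matches to GGGCGG. The Sema3e window had 11 CG dinucleotides at 50.7% GC and the Plxna2 window 25 at 64.7% GC, where the median promoter of the table had 7 CG at 52.7% GC. Neither held TAATTA, the core of LIM homeodomain sites such as that of the follicle factor Lhx2, which 5.29% of all promoters held, and the same was true of Sema6d and Unc5b. A match of letters is a description of the window and not a binding site.

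The other ligands and receptors below the HFSC level included both a Slit and a Robo. Slit3, a secreted repellent, had 36.4, 55.3, 70.7 and 135 normalised reads in Thy1hi libraries against 612, 264, 463 and 249 in HFSC (-2.46 ± 0.43, limma adjusted p = 5.9e-04). Robo2, one of its receptors, had 78.4, 69.8, 82.1 and 126 in Thy1hi and 54.7, 111, 80.5 and 95.1 in Thy1- libraries. Both keratinocyte sorts lay below the 223 of the lowest HFSC library, with -1.74 ± 0.36 in Thy1hi (limma adjusted p = 0.0028) and -1.81 ± 0.36 in Thy1- cells (limma adjusted p = 0.0048).

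Sema6c was low, at 2.21, 7.9, 9.75 and 1.94 in Thy1hi libraries against 30.0, 30.4, 49.2 and 32.9 in HFSC (-2.71 ± 0.56, limma adjusted p = 0.0025). Sema4g had 29.8, 43.5, 24.4 and 35.9 against 208, 115, 177 and 125 (-2.18 ± 0.51, limma adjusted p = 0.0064). Efnb2, the transmembrane ligand of Ephb4, had 726, 663, 815 and 1188 against 2371, 2458, 2348 and 2022 (-1.47 ± 0.26, limma adjusted p = 6.8e-04). In all 3 the groups were apart, and for Efnb2 the HFSC libraries lay close together (2299.6 ± 191, SD, n = 4).

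Ephb6 (-1.36, limma adjusted p = 0.0094) and Sema6a (-1.004, limma adjusted p = 0.032) completed the 9 lower members. The call of Sema6a was lost without any 1 of Thy1hi libraries 1, 2 and 4 and HFSC libraries 2 and 3.

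The 5 members higher in Thy1hi cells than in HFSC were 4 semaphorins and Robo1. Sema4d had the values given above and a difference of 1.56 ± 0.26 (limma adjusted p = 4.1e-04), and in Thy1- libraries it had 207, 182, 169 and 128 (1.42 ± 0.26, limma adjusted p = 0.0026, and 0.058 with no other population in the fit). Robo1 had 941, 699, 888 and 1009.9 in Thy1hi against 364, 289, 433 and 255 in HFSC libraries (1.41 ± 0.35, limma adjusted p = 0.0099), while its relative Robo2 went the other way. Sema3c had 3387, 2957, 3168 and 2784 against 1486, 981, 1424 and 1085 (1.32 ± 0.32, limma adjusted p = 0.0079). The groups of all 3 genes were apart.

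Sema4b, a transmembrane semaphorin, had 1197, 1195, 1263 and 1056 in Thy1hi libraries against 666, 687, 638 and 367 in HFSC (1.04 ± 0.21, limma adjusted p = 0.0022). Sema5a had 659, 666, 715 and 631 against 279, 489, 376 and 490.5 (0.74 ± 0.23, limma adjusted p = 0.041). Its groups were apart too, but the call was lost without any 1 of the 4 Thy1hi libraries, HFSC library 1 or HFSC library 3, and with edgeR (adjusted p = 0.057).

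Thy1- keratinocytes differed from HFSC in 4 members, Sema3e, Plxna2, Robo2 (lower) and Sema4d (higher), 7.27% of the 55 against 6.08% of all genes tested (2.56% higher, 3.52% lower). The median log2 difference was 0.07 for the members and 0.04 for all genes, and for the members it ranged from -0.04 without HFSC library 4 to 0.21 without HFSC library 2. Without Thy1- library 4 the count was 7, where 11.4% of all genes were called. The HFSC libraries are shared with the comparison above. The follicle marker sum was 682 to 987 in Thy1hi, 1906 to 2131 in Thy1- and 5771 to 9218 in HFSC libraries, with all 6 markers above 3 reads in each population, and the Langerhans cell sum of 5 markers was 523 to 1275, 962 to 1956 and 73.6 to 4909. A sum of 5 melanocyte markers was 35.3 to 83.4, 56.0 to 115 and 109.7 to 286, with 1 of the 5 at or under 3 reads in every Thy1hi library. The suprabasal sum of 5 markers was 8509 to 26348 in Thy1hi, 26023 to 39313 in Thy1- and 22678 to 47844 in HFSC libraries, and the basal sum of 6 was 183893 to 255461, 86316 to 153184 and 70923 to 164972. A sum of 5 Schwann cell markers was 545 to 763 in Thy1hi, 432 to 765 in Thy1- and 177 to 435 in HFSC libraries. Most of it was Mbp (527 to 610.5 in Thy1hi and 109 to 395 in HFSC). The part of these markers in the members' differences was not tested.

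The question closest to the study's aim is whether guidance genes separate Thy1hi from Thy1- keratinocytes. With 1 mean per population, limma called 0 of the 55 members, where 0.337% of all genes tested were called. The lowest adjusted p was 0.083, for Sema6a. At an unadjusted p under 0.05 limma had 7 members (Ephb6, Slit3, Efnb2, Sema3f, Sema4g, Sema6a and Sema6c), where 7.22% of all genes passed. edgeR called 0 members (0.256% of all genes) and DESeq2 called 1, Sema6a (adjusted p = 0.0086, with 1.22% of all genes called). The median log2 difference was -0.17 for the members and -0.02 for all genes, and for the members it ranged from -0.30 without Thy1hi library 2 to -0.01 without Thy1- library 2. Libraries did not overlap for 5 members, against 6.77% of all genes. Robo1, Sema3f and Sema5a were higher in Thy1hi (3.59% of all genes were) and Sema4g and Sema6a lower (3.17% of all genes were).

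Thy1hi and Thy1- libraries with the same number deviated from their group means together in all 4 pairs, and with the number as a block 11 members were called (5 higher and 6 lower, 20.0% of 55), where 6.61% of all genes were called (3.42% higher, 3.19% lower). Those lower in Thy1hi cells were 4 ligands (Slit3, Efnb2, Sema3e, Sema4g), the transmembrane semaphorin Sema6a and the receptor Ephb6. Slit3 differed by -1.78, -1.88, -1.34 and -1.16 on the log2 scale in pairs 1 to 4 (blocked limma adjusted p = 0.0010, unblocked 0.19). Thy1- libraries had 128, 206, 181 and 303 normalised reads of Slit3 and Thy1hi libraries 36.4, 55.3, 70.7 and 135, so that the groups overlap at their edges while each pair moves the same way.

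Sema6a had 46.4, 34.2, 56.9 and 42.7 normalised reads in Thy1hi and 76.6, 131, 114 and 122 in Thy1- libraries, with no overlap (log2 differences -0.71, -1.90, -0.99 and -1.50 by pair, blocked limma adjusted p = 0.0080). Efnb2 had 957, 1664, 1259 and 2536 in Thy1- libraries, a difference of -0.40, -1.33, -0.63 and -1.09 (blocked limma adjusted p = 0.0067, unblocked 0.25). Ephb6 differed by -0.47, -1.02, -0.76 and -0.83 (blocked limma adjusted p = 0.0034, unblocked 0.59), and Sema4g by -0.65, -1.05, -1.62 and -1.24 (0.015, unblocked 0.61).

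Sema3e completed the lower members, with -0.68, -0.76, -0.80 and -0.68 by pair (blocked limma adjusted p = 0.022, unblocked 0.87). Its pairs varied little, while its level between pairs varied from 33.1 to 104 within the Thy1hi libraries.

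The 5 members higher in Thy1hi cells in the blocked fit differed by less. Robo1 had 645, 624, 521 and 612 normalised reads in Thy1- libraries, below all Thy1hi libraries, and differed by 0.54, 0.17, 0.77 and 0.72 in pairs 1 to 4 (blocked limma adjusted p = 0.022, unblocked 0.90). Sema3f, a secreted ligand that uses neuropilin-2, had 699, 473, 468 and 747 in Thy1hi against 386, 375, 346 and 447 in Thy1- libraries (0.86, 0.33, 0.43 and 0.74, blocked limma adjusted p = 0.015, unblocked 0.59). For both genes all Thy1hi libraries lay above all Thy1- libraries. Sema3c differed by 0.22, 1.08, 0.31 and 0.61, Plxnb1 by 0.55, 0.15, 0.91 and 0.40 and Ephb4 by 0.54, 0.34, 0.64 and 0.31, with blocked limma adjusted p = 0.041, 0.041 and 0.032. The follicle marker sum (682 to 987 against 1906 to 2131) and the suprabasal sum of 5 markers (8509 to 26348 against 26023 to 39313) also differed between these sorts, as did the basal sum of 6 markers (183893 to 255461 against 86316 to 153184). Most of the follicle sum was Sox9 (580 to 782 against 1733 to 1823 normalised reads). Gli1 was also lower in Thy1hi libraries without overlap (9.22 to 17.9 against 18.9 to 32.0). Cd34 overlapped (47.4 to 75.6 against 43.8 to 102.5), as did Lgr5, Lhx2 and Tbx1. A sum of 6 fibroblast markers was 186 to 1946 in Thy1hi libraries and 122.96 to 215 in Thy1- libraries. The Langerhans cell sum (523 to 1275 against 962 to 1956) was lower in the Thy1hi library of every same-numbered pair. So was the melanocyte sum (35.3 to 83.4 against 56.0 to 115). The part of these markers in the blocked calls was not tested.

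**Figure D5:**
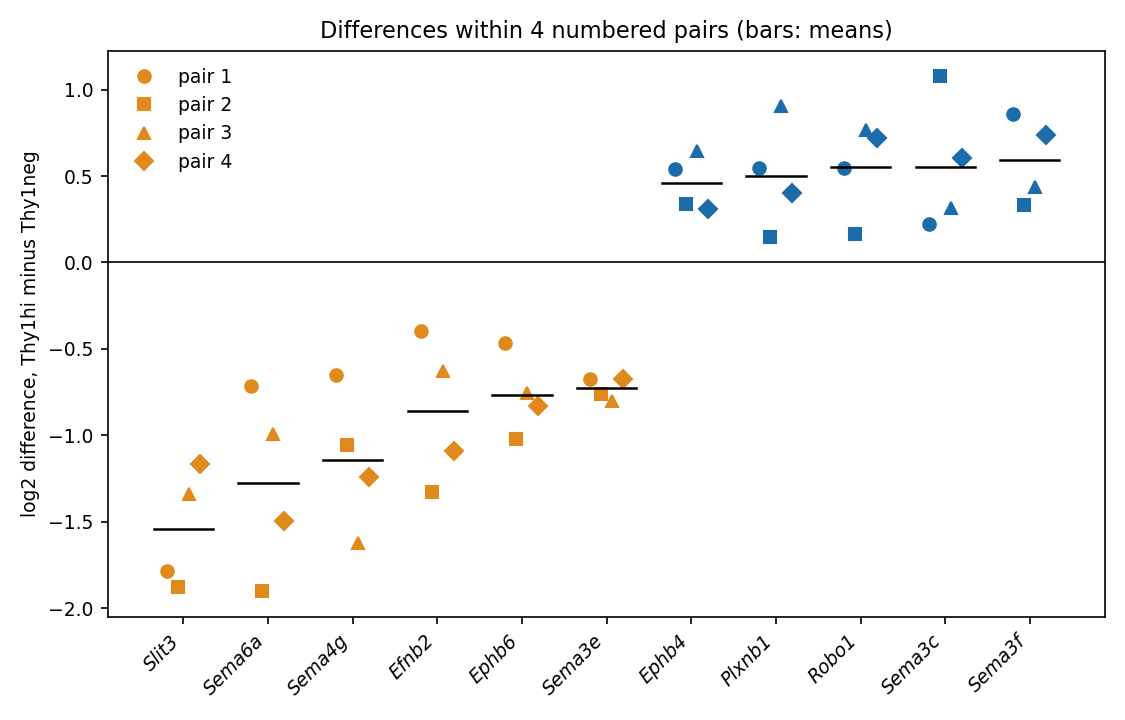
Log2 difference Thy1hi minus Thy1- in each of the 4 numbered pairs (points) for the 11 members called with the replicate number as a block. All 4 pairs of every gene lie on 1 side of zero, from -1.90 in pair 2 of Sema6a to 1.08 in pair 2 of Sema3c.

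The YFP+ Thy1hi libraries carry a reporter and an induction that the study's methods give for no other sort, so these cannot be told apart from the population. Against Thy1hi cells limma and edgeR each called 0 of 55 members, where each called 0.0116% of all genes tested, and DESeq2 called 0, with 0.593% of all genes. An unadjusted p under 0.05 was found by limma for 4 members (Robo2, Unc5b, Efna2 and Sema3c), where 9.07% of all genes passed. Libraries did not overlap for 9 members, 1 higher (Efna2) and 8 lower (Epha2, Epha10, Ephb4, Robo2, Unc5b, Efna1, Ntn1 and Sema4b), against 10.5% of all genes (4.92% higher, 5.55% lower). The lowest adjusted p was 0.46, for Sema3c, with 1419, 1176 and 2856 normalised reads against 2784 to 3387. The third library of this sort was within the Thy1hi range and the others were below it. Unc5b had 243, 235 and 245 in the YFP+ libraries, all below the Thy1hi libraries (-0.62 ± 0.30, limma adjusted p = 0.55), and Robo2 60.8, 54.2 and 32.7 (-0.85 ± 0.39, limma adjusted p = 0.53). The median log2 difference was -0.13 for the members (from -0.19 to -0.05 with 1 library left out) and -0.04 for all genes. The T cell marker sum was 119 to 223 in YFP+ and 243 to 420 in Thy1hi libraries, without overlap. The Schwann cell sum was 424 to 434 and 545 to 763, also without overlap. The suprabasal sum (14979 to 56298 and 8509 to 26348) and the basal sum (158496 to 265818 and 183893 to 255461) overlapped. The part of these markers in the members' differences was not tested.

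Neuropilins showed no call in any of the 6 comparisons. Nrp2, the co-receptor of Sema3F, had 35.3, 76.4, 45.5 and 56.3 normalised reads in Thy1hi, 70.8, 50.3 and 65.4 in Thy1hiYFP, 70.5, 148, 59.2 and 70.5 in Thy1-, 137, 49.96, 90.9 and 76.4 in HFSC and 157, 87.5, 98.0, 28.8 and 100.9 in DETC libraries. All 5 ranges overlap. Nrp1, the other neuropilin, had 30.3, 24.4, 21.4, 19.2 and 19.2 in DETC libraries against 14.3, 13.2, 5.69 and 11.6 in Thy1hi, and the groups did not overlap. The log2 difference of 1.02 ± 0.50 did not pass (limma adjusted p = 0.12). In the other populations Nrp1 ranged from 2.37 to 27.3. In all, 40 of the 55 tested members were called in at least 1 comparison without a block, and 15 in none: Nrp1, Nrp2, Efna2, Epha5, Epha7, Epha10, Ephb2, Plxna4, Sema3a, Sema4a, Sema5b, Sema7a, Slit2, Unc5c and Unc5d. The 12 members not tested (Epha3, Epha6, Epha8, Efnb3, Ntn5, Plxnb3, Robo3, Robo4, Sema3b, Sema3g, Sema6b and Unc5a) had at most 11.8 normalised reads in any library.

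Genes that act with these families were read from a list of 46 co-receptors and signalling partners, of which 44 were tested. Against Thy1hi cells DETCs had 9 higher and 9 lower, 40.9% of the 44, which is near the 36.6% of all genes. Against HFSC they had 10 higher and 14 lower, 54.5% of the 44 where 39.7% of all genes were called. Dpysl2 (CRMP2), a cytoskeletal adaptor of semaphorin signalling, had means of 1214 in DETC and 24.6 in Thy1hi (log2 difference 5.56 ± 0.48, limma adjusted p = 1.3e-08). Fyn, a kinase downstream of plexins and Eph receptors, had 1137 and 32.4 (5.16 ± 0.34, limma adjusted p = 4.2e-10). Mical1, an actin oxidase recruited by plexins, had 676 and 84.0 (2.95 ± 0.26, limma adjusted p = 1.6e-08), and Srgap3, a Robo effector, 334 and 30.5 (3.35 ± 0.32, limma adjusted p = 4.6e-08). Cd72, Farp1, Itsn1, Tiam1 and Dpysl5 were called higher too. Met, the receptor kinase that associates with class B plexins, was lower, at 182 against 803 (-2.33 ± 0.34, limma adjusted p = 1.3e-05). Unlike Mical1, its relatives Mical2 (-0.94, limma adjusted p = 0.0011) and Mical3 (-1.25, limma adjusted p = 0.0010) were lower. So were Arhgef11, Arhgef12, Enah, Gpc1, Vav2 and Abl2.

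Thy1hi cells had 3 partners higher and 11 lower than HFSC, 31.8% of 44 tested, against the 13.4% of all genes given above. Farp1, which acts downstream of plexins, had means of 39.6 and 375 (-3.27 ± 0.31, limma adjusted p = 7.7e-07), Flrt2, a ligand of Unc5 receptors, 126 and 379 (-1.54 ± 0.37, limma adjusted p = 0.0078) and Neo1 (neogenin, a netrin receptor) 265 and 534 (-1.01 ± 0.17, limma adjusted p = 4.1e-04). Those higher were Gpc1 (1.18), Vav3 (0.87) and Ntng2 (1.73). Thy1- cells had 1 partner higher and 5 lower than HFSC (13.6% of the 44, against 6.08% of all genes). Between Thy1hi and Thy1- cells limma called Dpysl5 (means 13.4 and 53.6, log2 difference -2.01, limma adjusted p = 0.034), and DESeq2 also Dpysl3 (adjusted p = 0.0037) and Farp1 (adjusted p = 0.046), both lower in Thy1hi. With the replicate block, 5 partners were lower in Thy1hi than in Thy1- cells and 0 higher (11.4% of the 44, where 6.61% of all genes were called, 3.19% lower). Between Thy1hiYFP and Thy1hi cells limma, edgeR and DESeq2 each called 0 of the 44, and 5 (11.4%) had an unadjusted p under 0.05 in limma, where 9.07% of all genes did.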

How the data were processed

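The authors used STAR on the mm10 genome and featureCounts, and deposited DESeq2-normalised counts per gene, a signal in reads divided by a size factor of 0.729 to 1.43 per library. Whole reads were recovered from 100% of the values of up to 500 reads (tolerance 0.1 read), and larger values were rounded to whole reads. The labels name both an unstranded and a stranded library kit. Whether counting used strand, and which libraries formed each of the 2 batches, is not given in the sources used here. In the column of Thy1- library 4 the values of 3212 genes, among them Nrp1, Nrp2, Ntn1, Ntn4 and Ntn5, followed an order of names without hyphens and were put back (correlation with the other Thy1- libraries over 1153 expressed moved genes 0.061 as deposited, 0.93 after). DETC libraries a and b have column numbers that match no sample title and were used without a number.

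All genes that reached a value of 10 in 3 or more of the 20 libraries were fitted with limma 3.58.1 in R 4.3.3 (trend, log2(value + 1), 1 mean per population, two-sided, Benjamini-Hochberg over 17204 genes, threshold 0.05), a scale that understates changes of low genes. Exact permutation tests were two-sided. edgeR 4.0.16 and DESeq2 1.42.0 were run on the recovered reads. The fits were tested on simulated data, of which no result is given here. Same-numbered libraries were taken as paired where their deviations from the group means correlated above 0.1 in every pair, since the labels do not say what a number shares. This held for Thy1hi with Thy1- (r 0.29 to 0.72 in 4 pairs) and DETC with HFSC (0.17 to 0.33 in 3 pairs). Libraries with different numbers ran from -0.65 to 0.51 and from -0.32 to 0.37. The rule therefore does not establish the pairing of DETC with HFSC.

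The members and lists were chosen with earlier results of these data known. Values in every library are given for up to 5 called members with the largest rise and 5 with the largest fall per comparison whose libraries do not overlap, and for the member with the highest mean in each family. Others so given were chosen after their values were seen. Exon lengths come from GENCODE M21, in which 62 of the 67 members have the position the table gives.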

Additional observations from a re-analysis of the deposited data

Results flagged for a closer look

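In 160 groups of 4 or 5 libraries, 4 for each of the 40 called members, 10 had a library whose gap to its nearest neighbour exceeded the critical value of Dixon's test at 95%, where chance gives about 1 in 20, or 8. DETC library a was the lowest for Epha1 (39.8 normalised reads, next 161), Plxna2 (139, next 457) and Plxnb2 (446, next 1027). HFSC library 4 was the lowest for Epha2 (262, next 1555) and Sema4b (367, next 638). The remaining 5 were in 5 different libraries. Thy1hi library 4 was high for Ephb6 (801, next 467), Thy1- library 1 low for Ntn4 (45, next 70.2), Thy1- library 2 high for Plxna3 (198, next 159), HFSC library 2 high for Sema3f (491, next 330.1) and HFSC library 3 high for Sema6c (49.2, next 32.9).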

How the results depend on the processing

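The 77 calls of single members were recomputed under pseudocounts of 0.1 and 10, no filter on low values, a mean of at least 50, the same total without Rn45s for every library, quantile normalization, the deposited row order, only the groups compared, a replicate block, each library left out, both keratinocyte libraries of replicate 4 left out, edgeR and DESeq2, and under an alternative added after seeing the data, without both DETC libraries that no title numbers. Of 1646 such results, 1551 kept their side of the threshold, 95 lost it and 0 changed sign. Filters on low values left some calls without a value (9 at a mean of at least 50, and Ntn1 in 3 settings without DETC libraries). In the settings that gave a value 60 calls held and 17 were lost at least once (9 of 33 in DETC minus HFSC, 5 of 26 in DETC minus Thy1hi, 2 of 14 in Thy1hi minus HFSC and 1 of 4 in Thy1- minus HFSC). The added alternative gave 26 members in DETC minus Thy1hi (11 higher, 15 lower, with 30.2% of all genes called) and 27 in DETC minus HFSC (6 higher, 21 lower, with 29.0% of all genes). Slit3, 1 of the 9, lost its call only there (-1.07, limma adjusted p = 0.080).

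For Thy1hi minus Thy1-, where 0 members were called, DESeq2 gave 1 and the replicate block 11. Thy1- minus HFSC gave 4 members and 8 without replicate 4 of both keratinocyte sorts, where the share of all genes called went from 6.08 to 15.1%. With 1 library left out, the counts ranged from 4 to 7 for Thy1- minus HFSC, 12 to 19 for Thy1hi minus HFSC, 24 to 29 for DETC minus Thy1hi and 29 to 33 for DETC minus HFSC, and were 0 for Thy1hi minus Thy1- and for Thy1hiYFP minus Thy1hi. The cause of these changes was not tested. Where the numbers do not pair the samples, the replicate block gave 13 members in Thy1hi minus HFSC, 4 in Thy1- minus HFSC, 31 in DETC minus Thy1hi (15 higher, 16 lower, where 8 higher and 18 lower were called without it) and 0 in Thy1hiYFP minus Thy1hi (7.96, 1.91, 42.7 and 0.0523% of all genes), with same-number correlations of -0.23 to 0.16, -0.23 to 0.17, -0.12 to 0.15 and -0.040 to 0.33, and 2 of 8, 2 of 8, 2 of 6 and 4 of 6 libraries closest to their own number. In DETC minus HFSC it was 3 of 6 and in Thy1hi minus Thy1- 7 of 8.

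Quantile normalization moved the median of all genes to -0.20 in DETC minus Thy1hi and to -0.15 in DETC minus HFSC and the share of called genes that were higher from 54.5 to 42.6% and from 53.3 to 43.2%, with 28 members (8 higher, 20 lower) and 34 members (7 higher, 27 lower) called. The same total without Rn45s for every library moved the median of Thy1- minus HFSC to 0.17 and that share from 42.1 to 63.4%, with 5 members called (2 higher, 3 lower). Ntn1, Slit1 and Sema4f rest on few reads in most libraries. In the deposited row order Ntn4 lost its call both in DETC minus Thy1hi (limma adjusted p = 0.24) and in DETC minus HFSC (0.15).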
